A study of Homo sapiens with 18 samples.

Results

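The NR4A family of nuclear receptors consists of NR4A1 (also called NUR77), NR4A2 (NURR1) and NR4A3 (NOR1). The genes were taken by symbol from a table of gene counts, and all 3 were found among its 58395 identifiers and among the 16794 genes tested. NR4A proteins are called orphan receptors because no classical hormone is established as their ligand, and their activity is set largely by how much protein is made. They bind the NBRE sequence AAAGGTCA as monomers, and NR4A1 and NR4A2 also pair with the retinoid X receptors. In many cell types, epithelial cells among them, growth factors acting through ERK and cyclic AMP acting through CREB induce the genes within minutes, as immediate-early genes whose messenger RNAs are short-lived.

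The cells were BxPC-3, an established human pancreatic adenocarcinoma line, kept in medium with serum. Treatment was with 80 ng/ml HGF, with 100 ng/ml MSP or with phosphate-buffered saline alone as vehicle, and RNA was collected after 1 h or 4 h. Each of the 6 groups had 3 libraries, 18 in all. HGF (hepatocyte growth factor) is the ligand of the receptor kinase MET, and MSP (macrophage-stimulating protein) is the ligand of RON, a related receptor kinase encoded by MST1R. The labels speak of triplicates without naming separate cultures, and the p-values therefore reflect spread between libraries that may be technical. All groups come from 1 cell line, and the ligands were given at 1 dose each.

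Library totals ran from 30556613 to 48477215 counts. All 8 ductal epithelial markers were expressed, and SMAD4, a gene deleted in BxPC-3, had 0 counts in every library, which allows up to 3 counts, or 0.0619 to 0.0982 CPM (a count scaled to a fixed library total). That limit covers counting error only. The HGF libraries at 4 h differed from the other groups in composition, with TMM scaling factors of 0.841 to 0.860 and 6.11% to 6.22% mitochondrial counts against 8.73% to 8.98% in vehicle at 4 h. Under library totals in place of TMM factors, the median change over all tested genes moved to -0.11 (log2) for HGF against vehicle at 1 h and to -0.35 at 4 h. The summed ductal marker level was 7284 to 7832 CPM in HGF at 4 h and 5736 to 5970 CPM in vehicle at 4 h. Endothelial markers, with KDR at 0 counts in every library, summed to 2.84 to 3.35 CPM in HGF at 4 h and 7.26 to 7.85 CPM in vehicle at 4 h. The part of these differences in the results below was not tested.

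NR4A1 (ENSG00000123358) lies on chr12:52022832-52059507, plus strand, in GENCODE 29 on GRCh38, with 22 annotated transcripts from 19 start positions. Its last part overlaps a long non-coding RNA on the opposite strand, AC025259.3, over 1045 bases. That RNA had 0 to 5 counts per library, although reads of the pair cannot be told apart if counting ignored strand. NR4A2 (ENSG00000153234) lies on chr2:156324432-156342348, minus strand, with 10 transcripts, and NR4A3 (ENSG00000119508) on chr9:99821855-99866891, plus strand, with 4.

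The stretch upstream of NR4A3 is shown because cyclic AMP response elements (CREs), which CREB binds, are the best known control sites of NR4A promoters and because NR4A3 rose 22.8-fold after HGF. It is read 5′ to 3′ on the plus strand from RefSeq's promoter windows (GRCh38.p14, chr9:99821635-99821854) and ends before the first annotated start. Capitals mark the CRE core TGACG or its reverse complement CGTCA.
NR4A3 upstream: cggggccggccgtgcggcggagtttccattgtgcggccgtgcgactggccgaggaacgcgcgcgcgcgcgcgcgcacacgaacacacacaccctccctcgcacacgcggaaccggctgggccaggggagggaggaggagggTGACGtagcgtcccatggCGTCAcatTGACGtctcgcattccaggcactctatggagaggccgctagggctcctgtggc
The 3 cores shown lie 105 to 109, 87 to 91 and 79 to 83 bases upstream of RefSeq's start, and a 4th lies 21 to 25 bases upstream of it. Of 35116 RefSeq windows of 300 bases, 24.6% held at least 1 core on either strand, 6.02% at least 2, 1.40% at least 3 and 0.313% at least 4. The window held no full CRE (TGACGTCA, in 1.85% of windows), NBRE (AAAGGTCA, 1.22%), AP-1 site (TGANTCA, 7.71%) or EGR site (GCGTGGGCG, 0.794%), and no CArG box (1.29%) or MEF2 site (2.99%), all searched on both strands. A full CRE also counts as cores, since it contains them. The 2 windows given for NR4A1, at chr12:52022582-52022881 and chr12:52037465-52037764, held none of these motifs. They do not cover the group of NR4A1 transcripts that start from position 52051402 on, nor other starts such as those at 52037177 and 52041805. No window was matched for NR4A2. These matches describe letters only, and no binding was measured.

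One hour of HGF raised all 3 genes, with the largest estimate for NR4A1. Levels are given as CPM scaled by TMM factors. NR4A1 stood at 17.2, 20.4 and 20.9 CPM in vehicle at 1 h and at 603, 523 and 518 CPM after HGF. Every HGF library was far above every vehicle library. Since RNA was taken from whole cultures, more cells with the transcript and more transcript per cell cannot be told apart. The rise was 28.1-fold, a log2 fold change of 4.81 (SE 0.08, edgeR adjusted p = 1.99e-23), the 11th largest of the 16794 genes.

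NR4A3 went from 1.21, 0.975 and 0.806 CPM to 22.4, 23.8 and 21.8 CPM. The groups were again far apart. The log2 fold change was 4.51 (SE 0.14, edgeR adjusted p = 6.06e-22), or 22.8-fold with a 95% interval of 18.4 to 28.2, the 12th largest. The interval for NR4A1, 24.9 to 31.6, overlapped it.

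NR4A2, best known as a factor of midbrain dopamine neurons, moved far less. It stood at 5.25, 5.07 and 4.93 CPM in vehicle and at 14.1, 15.8 and 14.3 CPM after HGF, again without overlap. The log2 fold change was 1.54 (SE 0.10, edgeR adjusted p = 5.99e-14), a rise of 2.90-fold. So 3 of 3 members were called higher, where 13.8% of all genes tested were called higher and 7.16% lower. No alternative fit changed any of these calls.

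**Figure D1:**
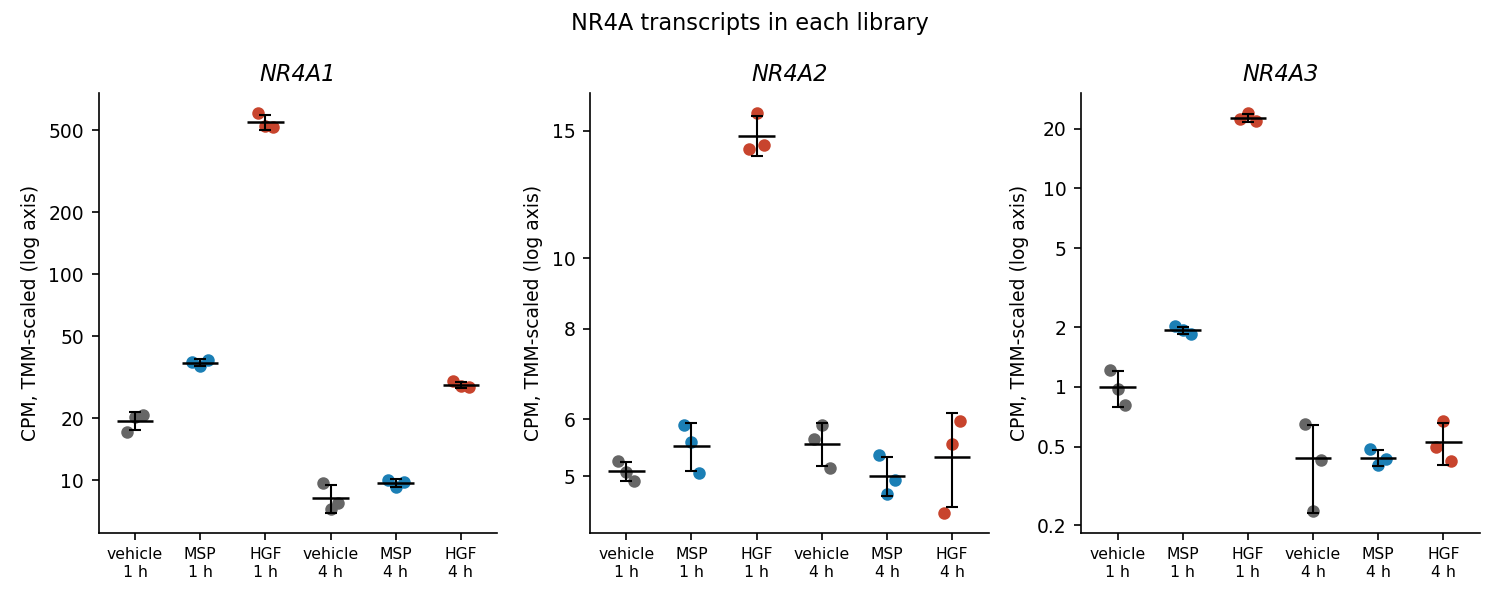
Level of NR4A1, NR4A2 and NR4A3 in each library, as TMM-scaled CPM on a log axis that differs between panels; points are libraries, lines the mean and bars the SD (n = 3 per group). The HGF libraries at 1 h stand above all others for each gene, and at 4 h only NR4A1 keeps HGF libraries (28.4 to 30.2 CPM) above the vehicle libraries (7.28 to 9.70 CPM).

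After 4 h of HGF only NR4A1 was called different from vehicle. Its level was 30.2, 28.6 and 28.4 CPM, against 9.70, 7.28 and 7.75 CPM in vehicle at 4 h, with no overlap. That is 3.53-fold, a log2 fold change of 1.82 (SE 0.09, edgeR adjusted p = 1.61e-14). One of 3 members was thus called higher and 0 lower, where 33.1% of all genes were called higher and 34.8% lower. The rise of NR4A1 was the 402nd largest of all genes.

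NR4A2 and NR4A3 did not pass the test at 4 h. NR4A2 stood at 4.45, 5.55 and 5.97 CPM after HGF and at 5.62, 5.89 and 5.14 CPM in vehicle, which overlap. Its log2 fold change was -0.053 (95% interval -0.30 to 0.19, edgeR adjusted p = 0.688). With library totals it was called lower, at -0.34 (adjusted p = 0.00705), where the median of all genes was -0.35. NR4A3 stood at 0.495, 0.670 and 0.424 CPM after HGF and at 0.649, 0.238 and 0.426 CPM in vehicle, also overlapping. Its log2 fold change was 0.27, with a 95% interval of -0.40 to 0.94 that reaches up to 1.92-fold (edgeR adjusted p = 0.446). The NR4A3 counts at 4 h were 8 to 22 per library, so smaller differences were not detectable at this depth.

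The fall from 1 h to 4 h was tested within HGF and as a difference of the HGF effects. NR4A3 fell by 5.42 on the log2 scale between HGF at 1 h and HGF at 4 h (SE 0.17, edgeR adjusted p = 2.76e-22), the 7th largest fall of all genes. NR4A1 fell by 4.24 (SE 0.08, edgeR adjusted p = 1.03e-22), the 16th largest, and NR4A2 by 1.46 (SE 0.10, edgeR adjusted p = 8.69e-14). At 4 h the mean level under HGF was 5.30% of its 1 h level for NR4A1, 36.1% for NR4A2 and 2.34% for NR4A3. All 3 members were called lower, where 33.6% of all genes were.

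Measured against vehicle at the same time, the HGF effect was smaller at 4 h for each gene. The difference of the log2 fold changes (4 h minus 1 h) was -2.99 for NR4A1 (SE 0.12, edgeR adjusted p = 1.16e-15), -1.59 for NR4A2 (SE 0.15, edgeR adjusted p = 1.62e-10) and -4.24 for NR4A3 (SE 0.37, edgeR adjusted p = 3.34e-11). All 3 members were called here too, where 26.4% of all genes were called lower. NR4A1 under HGF at 4 h was still 1.49 times its level in vehicle at 1 h, NR4A2 1.05 times and NR4A3 0.532 times. These ratios were not tested and depend on the TMM factors. As CPM of library totals, NR4A2 stood lower in HGF at 4 h (3.83 to 5.04) than in vehicle at 1 h (5.26 to 5.45). NR4A1 stayed higher, at 23.9 to 26.0 against 17.9 to 22.3.

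**Figure D2:**
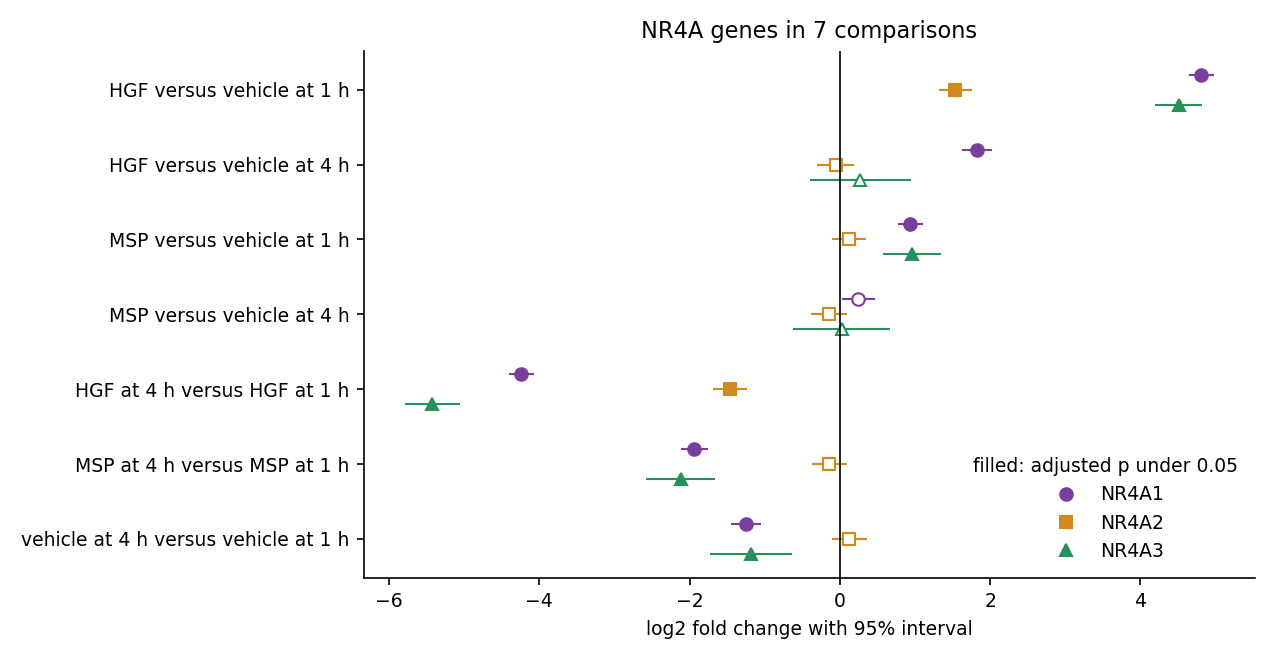
Log2 fold changes of the NR4A genes (x axis) in 7 comparisons (y axis), with 95% intervals from the edgeR fit; filled symbols passed an adjusted p of 0.05. HGF against vehicle at 1 h has the largest rises (4.81, 1.54 and 4.51), and NR4A2 is filled only in that comparison and in its fall under HGF.

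MSP raised NR4A1 and NR4A3 at 1 h, each by a little under 2-fold. NR4A1 stood at 37.7, 35.7 and 38.4 CPM after MSP, above the 17.2 to 20.9 CPM of vehicle. Its log2 fold change was 0.94 (SE 0.08, edgeR adjusted p = 2.18e-08), or 1.91-fold. NR4A3 stood at 2.01, 1.92 and 1.84 CPM, above the 0.806 to 1.21 CPM of vehicle. Its log2 fold change was 0.96 (SE 0.18, edgeR adjusted p = 0.00173), or 1.94-fold with a 95% interval of 1.49 to 2.53. The highest adjusted p of NR4A3 under any alternative was 0.0469.

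NR4A2 did not pass the test for MSP at 1 h. It stood at 5.89, 5.59 and 5.06 CPM, overlapping vehicle, with a log2 fold change of 0.12 (95% interval -0.11 to 0.35, edgeR adjusted p = 0.857). So 2 of 3 members were called higher, where 0.78% of all genes were. The same vehicle libraries served both ligands. Set side by side as CPM above the vehicle mean, the MSP rise was 3.37% of the HGF rise for NR4A1 and 4.28% for NR4A3.

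At 4 h of MSP edgeR called none of the 3 members, where it called 0.774% of all genes higher. DESeq2 also called 0, and 1 member, NR4A1, had an unadjusted edgeR p under 0.05. NR4A1 stood at 10.0, 9.29 and 9.84 CPM, and the lowest of these lay below the highest vehicle library, at 9.70 CPM. Its log2 fold change was 0.24 (95% interval 0.02 to 0.46, edgeR adjusted p = 0.310). It passed narrowly without the filter on low counts, at 0.25 (adjusted p = 0.0487). NR4A2 stood at 5.34, 4.73 and 4.94 CPM (log2 fold change -0.14, edgeR adjusted p = 0.662) and NR4A3 at 0.484, 0.401 and 0.432 CPM (0.025, edgeR adjusted p = 0.988).

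The change of the MSP effect with time was called for NR4A1, at -0.69 (SE 0.13, edgeR adjusted p = 0.00855), where 0.274% of all genes were called lower. For NR4A3 the estimate was larger, at -0.93, but with an SE of 0.35 it did not pass (95% interval -1.70 to -0.17, edgeR adjusted p = 0.423). The estimate for NR4A2 was -0.26 (edgeR adjusted p = 0.756). Within MSP, NR4A1 fell by 1.94 between 1 h and 4 h (edgeR adjusted p = 6.16e-14) and NR4A3 by 2.12 (edgeR adjusted p = 6.89e-09), where 14.6% of all genes fell. NR4A2 changed by -0.14 (edgeR adjusted p = 0.358), which did not pass.

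Compared directly, HGF gave higher levels than MSP for all 3 genes at 1 h. The log2 fold change of HGF against MSP was 3.88 for NR4A1 (SE 0.07, edgeR adjusted p = 6.45e-22), 1.42 for NR4A2 (SE 0.10, edgeR adjusted p = 3.69e-13) and 3.55 for NR4A3 (SE 0.13, edgeR adjusted p = 2.88e-20). These are 14.7-fold, 2.67-fold and 11.7-fold, and 11.4% of all genes were called higher. At 4 h NR4A1 alone was called higher under HGF, by 1.58 (SE 0.09, edgeR adjusted p = 1.21e-13), where 32.7% of all genes were. NR4A2 differed by 0.091 (95% interval -0.15 to 0.34) and NR4A3 by 0.25 (-0.40 to 0.90). The ligands were given at different doses, 80 and 100 ng/ml.

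The vehicle cells themselves changed between the times. NR4A1 was lower at 4 h than at 1 h, at 7.28 to 9.70 CPM against 17.2 to 20.9 CPM, a log2 fold change of -1.25 (SE 0.09, edgeR adjusted p = 3.82e-09). NR4A3 fell as well, by 1.18 (SE 0.25, edgeR adjusted p = 0.00105), from 0.806 to 1.21 CPM at 1 h to 0.238 to 0.649 CPM at 4 h. NR4A2 stood at 5.14 to 5.89 CPM at 4 h, with a change of 0.13 (95% interval -0.11 to 0.36, edgeR adjusted p = 0.455). Thus 2 of 3 members were called lower and 0 higher, where 9.99% of all genes were called lower and 10.9% higher. Of 30 other immediate-early genes, 19 were also lower in vehicle at 4 h and 1 was higher. Cells from before the vehicle was added were not analysed here.

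Ordered by level, NR4A1 separated nearly all groups. Its mean level was 548 ± 47.4 CPM in HGF at 1 h, 37.3 ± 1.40 in MSP at 1 h, 29.1 ± 1.02 in HGF at 4 h, 19.5 ± 1.97 in vehicle at 1 h, 9.72 ± 0.384 in MSP at 4 h and 8.24 ± 1.28 in vehicle at 4 h (SD, n = 3). Neighbouring groups in this order did not overlap, except the last pair. NR4A2 had 14.8 ± 0.940 CPM in HGF at 1 h and means of 5.00 to 5.55 CPM in the other 5 groups, each of which overlapped its neighbour. For NR4A3 the order was HGF at 1 h (22.7 ± 1.04 CPM), MSP at 1 h (1.92 ± 0.0872 CPM) and vehicle at 1 h (0.996 ± 0.202 CPM), with the 3 groups at 4 h overlapping at means of 0.437 to 0.530 CPM.

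Ratios of counts within a library, which need no scaling factor, compare the members with each other. In vehicle at 1 h there were 14.3 to 25.9 NR4A1 counts per NR4A3 count. In HGF at 1 h there were 21.95 to 26.9 and in MSP at 1 h 18.6 to 20.9, both overlapping vehicle (exact two-sided permutation p = 0.4 and p = 1, adjusted 0.6 and 1). The ratio stood apart in 1 group, HGF at 4 h, with 42.7 to 66.8 against 14.95 to 30.6 in vehicle at 4 h (exact permutation p = 0.1, adjusted 0.167). These 4 h ratios rest on few NR4A3 counts per library, 13 to 18 after HGF and 8 to 21 in vehicle.

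Against NR4A2 the NR4A1 ratios of the groups compared lay apart in these libraries. It was 3.28 to 4.24 in vehicle at 1 h, 33.0 to 42.6 in HGF at 1 h and 6.40 to 7.60 in MSP at 1 h. At 4 h it was 1.24 to 1.73 in vehicle, 4.75 to 6.79 after HGF and 1.88 to 1.99 after MSP. Neither ligand's libraries overlapped vehicle at either time, and the vehicle groups did not overlap each other. With 3 against 3 libraries the smallest exact permutation p is 0.1, or 0.167 after Benjamini-Hochberg adjustment over the 15 ratio comparisons, so none could pass 0.05.

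**Figure D3:**
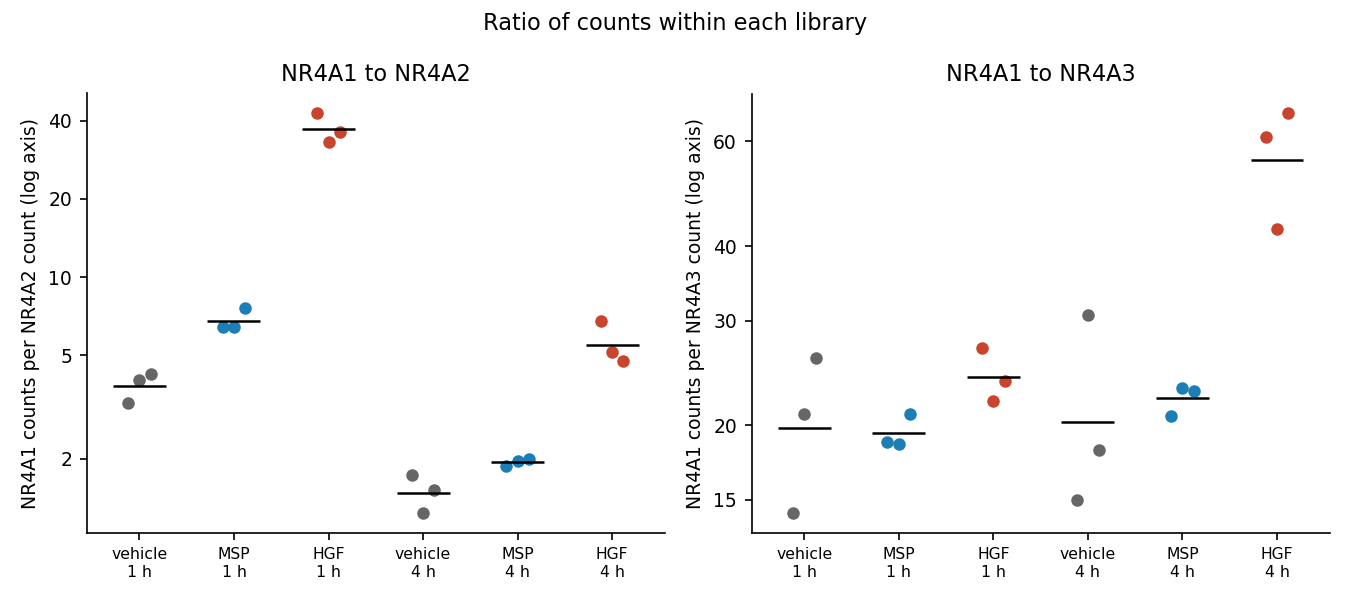
NR4A1 counts per NR4A2 count (left) and per NR4A3 count (right) in each library, on log axes; points are libraries and lines are geometric means. The left ratio is highest in HGF at 1 h (33.0 to 42.6), while the right ratio overlaps vehicle in every group but HGF at 4 h (42.7 to 66.8).

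Per kilobase of exons, NR4A1 was the most abundant member in every group but vehicle at 4 h. Dividing CPM by the union of each gene's exons in GENCODE 29 (7295, 3967 and 6314 bases), NR4A1 made up 64.9% ± 3.50 of the summed NR4A level in vehicle at 1 h and 91.1% ± 0.933 after HGF (SD, n = 3). It made up 75.1% ± 1.71 in MSP at 1 h, 73.7% ± 3.39 in HGF at 4 h and 50.1% ± 0.824 in MSP at 4 h. NR4A3 made up 3.87% ± 0.979 in vehicle at 1 h, where NR4A2 made up 31.2% ± 2.53. After 1 h of HGF the shares of NR4A3 and NR4A2 were alike in size, at 4.37% ± 0.401 and 4.54% ± 0.532, and they overlapped. With the length of RefSeq-matched transcripts they did not overlap, at 2.75% ± 0.265 for NR4A3 and 1.96% ± 0.239 for NR4A2, so their order depends on the length used. In vehicle at 4 h the order of NR4A1 and NR4A2 depends on it too. It was 1.13 against 1.40 CPM per kb of exon union, and 3.13 against 1.60 CPM per kb of the median transcript that GENCODE matches to RefSeq.

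Within the nuclear receptor superfamily the NR4A genes had the largest rises after 1 h of HGF. Of 48 receptor genes 34 were tested, and 7 never exceeded 3 counts in any library. NR4A1, NR4A3 and NR4A2 ranked 1, 2 and 3 of the 34 for HGF against vehicle at 1 h. Of the 31 tested receptors outside the family, 7 were called higher and 3 lower, with a median log2 fold change of 0.051 and a range from -0.62 to 0.86, where the median of all genes was -0.004, 13.8% of them were higher and 7.16% lower. With library totals the counts were 2 higher and 9 lower, so the balance of these receptors depends on the scaling, while the NR4A calls at 1 h do not. RARA, the retinoic acid receptor alpha gene, had the largest rise of the others, from 24.5 to 44.7 CPM, a log2 fold change of 0.86 (SE 0.06), followed by NR1D1 (0.79), which encodes the clock repressor REV-ERB alpha. NR2F2 (-0.62) and NR2F1 (-0.43), which encode the COUP-TF orphan receptors, fell.

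At 4 h of HGF, NR4A1 ranked 2 of 34, behind NR5A2 (log2 fold change 2.05), an orphan receptor of pancreatic and liver cells that was near the detection limit, at 0.260 CPM in vehicle and 1.07 CPM after HGF. NR4A3 ranked 13 and NR4A2 15. Outside the family, 11 of 31 receptors were called higher and 14 lower (8 and 18 with library totals), where 33.1% of all genes were higher and 34.8% lower. RARA rose by 1.08. RXRB, a possible partner of NR4A1 and NR4A2, changed by -0.96, NR2F2 by -1.51 and RARB by -4.20. RARB went from 2.46 CPM in vehicle to 0.128 CPM after HGF, near the detection limit, so the size of its fall is uncertain. For MSP at 1 h RARA was the single receptor called outside the family, at 0.26, and it lost the call in 7 of 13 alternative fits. At 4 h of MSP edgeR and DESeq2 called 0 of the 31, and 4 had an unadjusted edgeR p under 0.05.

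**Figure D4:**
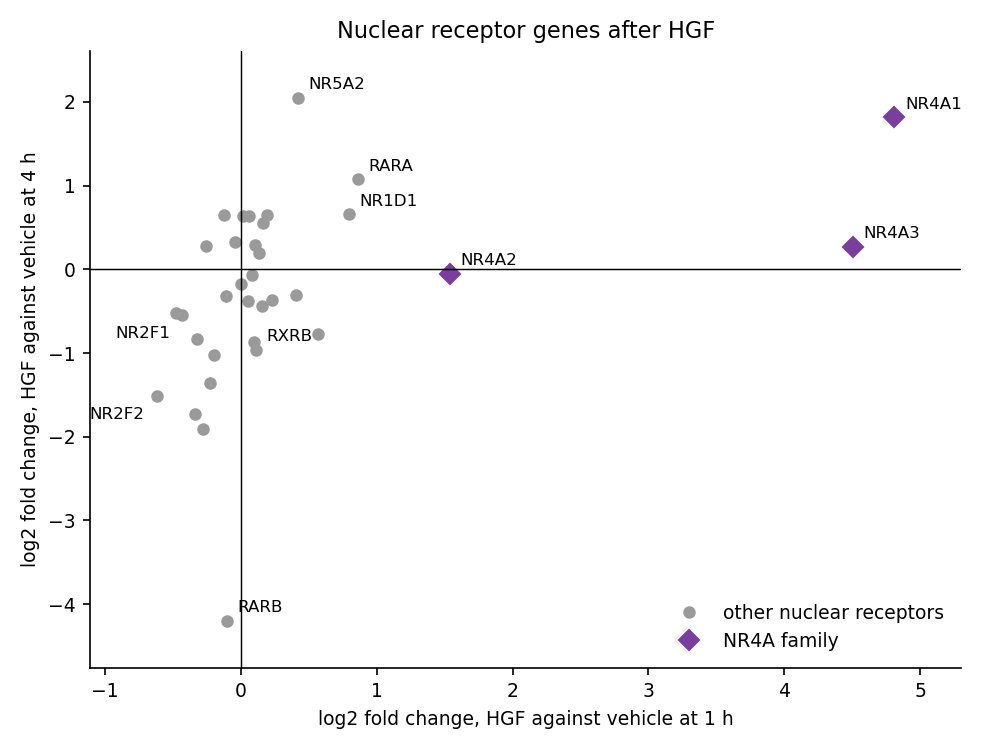
Log2 fold change of each tested nuclear receptor gene for HGF against vehicle at 1 h (x axis) and 4 h (y axis); diamonds are the 3 NR4A genes and circles the other 31. NR4A1 and NR4A3 stand far to the right (4.81 and 4.51), and of these only NR4A1 (1.82) is also high at 4 h.

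The NR4A genes were then set beside 30 other immediate-early genes, a list chosen with earlier results of these data known. HGF raised all 30 at 1 h, where 13.8% of all genes were called higher. The median log2 fold change of the 30 was 2.87, with a range from 0.73 to 6.05. Of these, 25 rose less than NR4A1, 25 less than NR4A3 and 6 less than NR4A2. EGR2 (6.05) and EGR3 (6.02), zinc finger factors of the EGR family, rose more than any NR4A gene, and the AP-1 subunit FOSB (4.50) about as much as NR4A3.

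At 4 h the 2 most induced NR4A genes had separate places among the 30. Of all genes, 33.1% were called higher there and 34.8% lower. Of the 30, 25 were called higher and 2 lower, with a median of 1.31. NR4A1, at 1.82, lay above 22 of them. NR4A3, at 0.27, lay above 4, and NR4A2 above 2. DUSP5, a phosphatase that acts on ERK, stood at 2.39, JUN at 1.84 and RASD1 at 3.80. MSP raised 23 of the 30 at 1 h, where 0.78% of all genes were called higher. The median of the 30 was 0.57, below the values of NR4A1 and NR4A3. MSP raised 2 of the 30 at 4 h, where 0.774% of all genes were called higher, and no NR4A gene was called at that time.

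**Figure D5:**
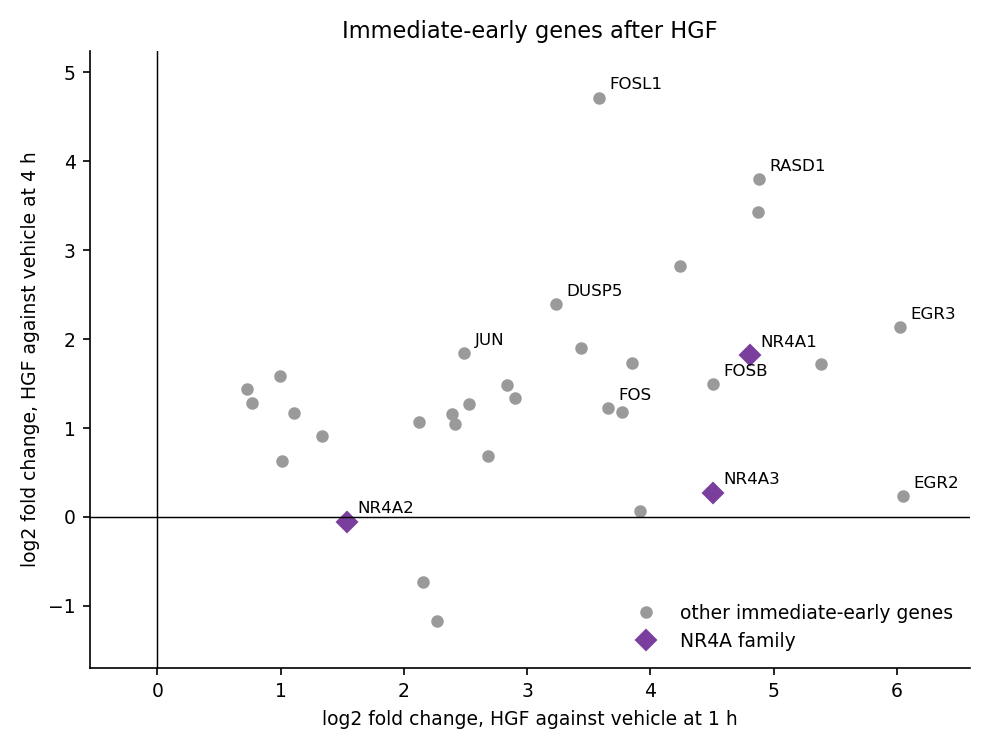
Log2 fold change of 30 other immediate-early genes (circles) and of the NR4A genes (diamonds) for HGF against vehicle at 1 h (x axis) and 4 h (y axis). NR4A1 lies beside FOSB (4.50 and 1.49), whereas NR4A3 lies near 0 at 4 h together with EGR2 (6.05 and 0.23).

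Among genes known to act on NR4A promoters, every estimated change after 1 h of HGF was smaller than the 1.54 of NR4A2, whereas at 4 h SRF, HDAC5 and CRTC1, among others, exceeded NR4A2 and NR4A3 in size. These differences between genes were not tested. Of 22 tested factors and coactivators (CREB and its coactivators, MEF2, SRF and its partners, and the histone deacetylases that bind MEF2), 8 were called higher and 1 lower after 1 h of HGF, or 4 and 3 with library totals, where 13.8% of all genes were higher and 7.16% lower. SRF, serum response factor, rose by 1.11 and MEF2D by 0.76, followed by ELK1 (0.30) and MEF2A (0.25). At 4 h 12 were higher and 7 lower, or 7 and 9 with library totals, where 33.1% and 34.8% of all genes were called. Among them were SRF (1.17), HDAC5 (-0.74) and the CREB coactivator gene CRTC1 (-0.83). MSP raised 1 of the 22 at 1 h, namely SRF, by 0.17 (edgeR adjusted p = 0.0336), a call that at least 1 alternative fit did not make.

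Of 18 kinases upstream of NR4A genes or known to phosphorylate NR4A proteins, HGF raised 2 at 1 h, namely MAPK7 (ERK5; 0.32) and RPS6KA4 (MSK2; 0.29). That share is close to the 13.8% of all genes called higher. At 4 h 9 were higher and 6 lower (6 and 9 with library totals), where 33.1% and 34.8% of all genes were, with RPS6KA4 at 1.41, MAP2K1 (MEK1) at 1.18 and RPS6KA1 (RSK1) at 0.88. No kinase was called for MSP at 1 h by edgeR or DESeq2, and 1 had an unadjusted edgeR p under 0.05.

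Of 13 tested partners and corepressors of NR4A proteins, 2 were higher and 0 lower at 1 h of HGF (2 and 5 with library totals), a share near that of all genes called higher (13.8%). These were FHL2 (1.14), which encodes a LIM-domain protein that binds NR4A1, and RCOR1 (0.20), which encodes the corepressor CoREST that NR4A2 recruits. At 4 h 5 were higher and 7 lower (3 and 9 with library totals), against 33.1% and 34.8% of all genes, with HIF1A at 1.23, FHL2 at 1.09 and RCOR1 at 0.99.

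Genes driven by CREs elsewhere rose in part with the NR4A genes. Of 16 tested, 10 were higher, 1 lower and 5 not called at 1 h of HGF. The counts higher and lower were the same with library totals. The median log2 fold change was 0.72, and of all genes 13.8% were higher and 7.16% lower. FOSB (4.50), DUSP1 (3.85), FOS (3.66) and JUNB (2.68) passed with the smallest adjusted p. All 4 are also on the immediate-early list, as are EGR1 and ATF3 of those called higher, so the median includes genes of that list. CREM, SIK1, PDE4D, BDNF and INHBA were the genes not called. At 4 h 9 were higher and 4 lower, where 33.1% of all genes were higher and 34.8% lower, and INHBA (2.48), RGS2 (1.54) and FOSB (1.49) had the smallest adjusted p.

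Reported target genes of the NR4A proteins did not move in 1 direction, and more were lower than higher at 4 h of HGF. Of 17 tested, 4 were higher and 3 lower at 1 h of HGF (1 and 5 with library totals), and 4 were higher and 11 lower at 4 h (4 and 12 with library totals). Of all genes, 13.8% were higher and 7.16% lower at 1 h, and 33.1% and 34.8% at 4 h. ITGB1 rose by 0.18 and 0.75, the value at 1 h losing its call with library totals (0.076). SESN2 fell by 0.81 at 1 h, and CCND1 rose by 0.67 at 4 h. The naming rule, by smallest adjusted p, took no gene called lower at 4 h. The median log2 fold change of the list at 4 h was -0.43, against -0.059 for all genes. VCAM1 changed by -1.64 at 1 h, from 0.547 to 0.178 CPM, a call lost without vehicle replicate 1 at 1 h. These lists hold genes with many other regulators, and no NR4A protein was measured or removed.

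Neither ligand receptor gene passed the test for HGF at 1 h (edgeR), where 1 of the pair had an unadjusted p under 0.05 and DESeq2 called 0. At 4 h of HGF, MST1R rose by 0.96 and MET by 0.32, the latter not called with library totals (0.027). MET stood at 817 CPM and MST1R at 59.3 CPM in vehicle at 1 h.

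Over the 18 libraries, the genes whose log2 CPM was most like each member were listed by Pearson's r among 12469 genes with a mean of at least 1 CPM. The values describe 6 shared groups, of which HGF at 1 h stands apart, and carry no test. NR4A1 was most like FOSB (0.996), BCL3 (0.992), CCN1 (0.992), CCN2 (0.991) and FOS (0.991). NR4A3 was most like EGR2 (0.989), MISP (0.985), EGR1 (0.980), PPP1R10 (0.980) and ZC3H12A (0.977). NR4A2 was most like NRARP (0.971), ING1 (0.968), PIM3 (0.962), OVOL1 (0.958) and FOSL2 (0.958). Among themselves, NR4A1 and NR4A3 had an r of 0.959, NR4A2 and NR4A3 0.911, and NR4A1 and NR4A2 0.906. Spearman's rank correlations of these pairs were 0.85, 0.43 and 0.41 in the same order. By Spearman's rank correlation, 2, 2 and 0 of the 5 genes named for NR4A1, NR4A3 and NR4A2 were again among the closest 5.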

How the data were processed

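RNA of 18 libraries was measured with KAPA mRNA kits, per the labels' protocols. The deposited table held raw gene counts, 1 column per library. The authors used STAR for alignment and featureCounts (Subread) for counting, per the submitters' processing notes. Strand setting, build and annotation were each not given in the sources used here. Of 58395 identifiers 41885 had a symbol.

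Genes were kept by filterByExpr (minimum count 10, minimum total 15), scaled by TMM and fitted with edgeR 4.0.16's robust quasi-likelihood model, with the 18 libraries in 1 model of 6 group means (residual df 12). For each of 11 comparisons the p-values of all 16794 genes were adjusted by Benjamini-Hochberg, and an adjusted p under 0.05 was called. An SE is the absolute log2 fold change divided by the square root of F, and 95% intervals use 12 degrees of freedom. Log2 CPM used a prior count of 2. The test was checked on simulated data.

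Alternatives were library totals, DESeq2's size factors, no filter, DESeq2 1.42.0, only the groups compared, no robust estimation, a replicate block and leaving out each library. The 3 members, the gene lists and the naming rule were chosen with earlier results of these data known. The rule names the NR4A genes, the 5 genes most like each, up to 4 called genes per list with the smallest adjusted p for HGF at 1 h and up to 3 at 4 h, the called receptors of lowest and highest change, MET, MST1R and SMAD4. One gene that the rule names is not reported here. Transcript-length and count-ratio comparisons were added after the data were seen. Markers of fibroblasts summed to 14.4 to 18.6 CPM per library, of leukocytes to 1.75 to 2.99, of endothelium to 2.84 to 8.97 and of acinar and islet cells to 6.20 to 11.9.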

Additional observations from a re-analysis of the deposited data

Results flagged for a closer look

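Differences of a ligand's effect between the times were called for 4 results, each by the interaction term of the edgeR fit. The HGF effect (4 h minus 1 h, log2 scale) differed by -2.99 for NR4A1, by -1.59 for NR4A2 and by -4.24 for NR4A3. The MSP effect differed by -0.69 for NR4A1. Vehicle also fell between the times for NR4A1 (-1.25) and NR4A3 (-1.18), which the interaction takes into account.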

How the results depend on the processing

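Of 33 tests of the 3 NR4A genes, the 21 called kept direction and call under every alternative. That covers 297 values, each 1 result under 1 alternative, with a highest adjusted p of 0.0469. The 12 not called were less stable. With library totals, NR4A2 for HGF against vehicle at 4 h became called (-0.34), and values near 0 turned sign: NR4A3 in that comparison (-0.017), and NR4A2 (-0.21) and NR4A3 (-0.051) for HGF against MSP at 4 h. Without the filter NR4A1 for MSP at 4 h was called (0.25). Leaving out 1 library each gave -0.021 to 0.65 for NR4A3 and -0.15 to 0.058 for NR4A2 with HGF at 4 h, -0.27 to 0.40 for NR4A3 with MSP at 4 h, and -0.0039 to 0.20 for NR4A2 in HGF against MSP at 4 h; the cause was not tested.

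Same-numbered libraries deviated together in 1 of 45 pairs (r over 0.1, with a median of 0.0309). These correlations cannot show whether same-numbered libraries were handled together. A replicate block raised the number of called genes in every comparison, for MSP against vehicle at 4 h from 179 to 228. With a replicate block the HGF change at 1 h was 4.81 for NR4A1, 1.54 for NR4A2 and 4.51 for NR4A3, and no NR4A call changed.

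Counts of called genes over 1.5 times apart were those for MSP at 4 h (179; 354 without the filter, 318 with DESeq2, 402 with only the groups compared, and 32, 20, 16 and 83 without vehicle replicate 2 or 3 or MSP replicate 2 or 3), MSP at 1 h (140; 81 with only the groups compared), the MSP time difference (54; 148 without the filter, 93 with DESeq2) and vehicle over time (3513; 2227 without vehicle replicate 1 at 4 h). With library totals the share of calls that were higher went from 65.8% to 29.8% for HGF at 1 h, from 48.7% to 28.9% at 4 h, and for HGF against MSP from 64.1% to 29.4% and from 49.2% to 27.0%. It went from 48.7% to 32.6% for HGF over time, from 50.3% to 32.9% for the HGF time difference and from 52.3% to 41.7% for vehicle over time. Of 49 results of other named genes 45 kept their call in every alternative and 0 reversed.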
